A study of Mus musculus with 9 samples.

Results

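Tetraspanins are small membrane proteins that cross the membrane several times, bind partner proteins such as integrins and proteases, and gather them into membrane microdomains. In mast cells CD63 sits in the membrane of the secretory granules and reaches the cell surface when granules fuse with it, which is why surface CD63 is used as a marker of degranulation. CD9, CD81 and CD63 are also the tetraspanins most often used to recognise exosomes, vesicles that are released when multivesicular endosomes fuse with the cell membrane.

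The 10 genes described here were taken by name from the expression table: Cd63, Cd9, Cd81, Cd53, Cd37, Tspan32, Cd151, Cd82, Tspan14 and Tspan3. They are 10 of the 23951 gene symbols in it, and the selection rule sets no threshold on a measured value. The table holds RNA-seq of mast cells cultured from wild-type C57BL/6 bone marrow, 3 libraries in each of 3 groups. For all groups the medium held interleukin-3 and stem cell factor, each at 10 ng/ml, over 4 to 6 weeks, with over 95% of the cells positive for the high-affinity IgE receptor and CD117 per the labels. The untreated group received nothing further, the IgE group received 0.5 µg/ml IgE for 18 h, and the antigen group received the same IgE and then 50 ng/ml DNP-BSA, a hapten-protein conjugate, for 2 h. The comparison of antigen with IgE therefore shows the antigen step, and that of IgE with untreated cells shows the IgE step. That of antigen with untreated cells covers both steps. The labels do not say whether the IgE group was held for the further 2 h, so time and handling cannot be told apart from antigen.

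Levels are in FPKM, fragment counts divided by transcript length in kilobases and by the size of the library, a scale that takes out transcript length, so that levels of different genes can be set side by side. Log2 fold changes are differences of mean log2(FPKM + 1), which understate the change of low genes, whereas plain folds are ratios of group means. A gene was called changed when its limma p, adjusted over 10890 tested genes, was under 0.05. The ± after a mean is the SD over n = 3 libraries, listed in the order of their replicate numbers.

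Estimated depth was 28.8 to 33.7 M (mega) reads in untreated, 32.1 to 39.3 M in IgE and 20.6 to 28.3 M in antigen libraries. Summed over all symbols, FPKM reached 469206 to 508831 in untreated, 483794 to 524935 in IgE and 554415 to 575197 in antigen libraries. IgE replicate 3 stood apart from its group: its spread against the other IgE libraries was 2.65 and 2.77 times the counting noise, against 1.17 to 1.74 in the other pairs. In antigen replicate 3, the table lists 0 for all 437 X-linked genes with a value above 0 in each of the 8 remaining libraries, but none of the 10 tetraspanins is X-linked. Of 9 mast cell markers 7 were at 1 FPKM or more in every library, while the mast cell proteases Cpa3 and Cma1 were listed at 0 in all 9. Such zeros may be failed estimates in the deposited values, so they are not read as absence of the transcripts. Among markers of other cells, the summed level of 6 macrophage genes was 22.4 to 23.7 FPKM in untreated, 26.6 to 27.4 FPKM in IgE and 41.5 to 42.8 FPKM in antigen libraries. With antigen against IgE 2 of the 3 tested macrophage markers were called higher and 1 lower. Cd68, a lysosomal protein, was at 16.1 ± 0.245 FPKM with IgE and 30.2 ± 0.478 FPKM with antigen, Cd14 at 0.714 ± 0.0632 and 3.45 ± 0.413 FPKM, and Emr1 at 9.36 ± 0.280 and 7.75 ± 0.0620 FPKM. The other 3 were too low to be tested, with antigen means of 0.612 FPKM for Csf1r, 0.105 FPKM for Mrc1 and a listed 0 for C1qa. The 3 basophil markers summed to 138 to 164, 125 to 131 and 93.0 to 94.5 FPKM in untreated, IgE and antigen libraries, but did not move together. Prss34 went from 120, 109 and 132 FPKM in untreated to 55.3, 54.1 and 54.7 FPKM in antigen libraries. Mcpt8 went from 11.7, 11.9 and 13.5 to 18.7, 18.1 and 21.9 FPKM between the same groups. With antigen against untreated 1 of the 3 was called higher, 1 lower and 1 was not called. The part of either marker list in the tetraspanin levels was not tested, and in bulk RNA fewer cells of a type cannot be told apart from less RNA per cell.

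RefSeq start sites in the mouse assembly GRCm38.p6 were found for all 10 genes, 15 in all, and their promoters were taken from 250 bases before to 50 bases after the start. The promoters of the most abundant member, of 3 others that rose with antigen and of the gene that fell furthest are shown here. They are a choice from the 15 and cannot show whether matches go with the direction of change. Cd151 is shown at the start site that holds a marked match, and its other site holds none. Cd82, which rose further than Cd9 and Cd151, is not shown, and its start sites 1 and 2 hold no marked match. The promoter of Cd81, also called higher with antigen, holds none either. Capitals mark matches on either strand to the NFAT core GGAAA, to the NF-kB consensus or to the AP-1 motif TGANTCA, the binding motifs of factors that act downstream of the IgE receptor. Which start site was used in these cells is not known.
Cd63, chr10:128909095-128909394, plus strand: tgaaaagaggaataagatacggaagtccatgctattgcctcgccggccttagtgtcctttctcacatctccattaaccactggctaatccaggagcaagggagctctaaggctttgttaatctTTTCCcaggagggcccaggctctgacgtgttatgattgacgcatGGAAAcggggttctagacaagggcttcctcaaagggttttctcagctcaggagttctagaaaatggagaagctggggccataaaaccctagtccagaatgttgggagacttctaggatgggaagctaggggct
Cd9, chr6:125494711-125495010, minus strand: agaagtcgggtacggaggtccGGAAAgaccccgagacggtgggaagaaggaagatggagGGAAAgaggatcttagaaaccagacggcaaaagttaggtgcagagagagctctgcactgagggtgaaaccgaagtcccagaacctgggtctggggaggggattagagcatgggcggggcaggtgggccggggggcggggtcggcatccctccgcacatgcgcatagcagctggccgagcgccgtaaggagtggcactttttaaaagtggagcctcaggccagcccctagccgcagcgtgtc
Cd53, chr3:106790100-106790399, minus strand: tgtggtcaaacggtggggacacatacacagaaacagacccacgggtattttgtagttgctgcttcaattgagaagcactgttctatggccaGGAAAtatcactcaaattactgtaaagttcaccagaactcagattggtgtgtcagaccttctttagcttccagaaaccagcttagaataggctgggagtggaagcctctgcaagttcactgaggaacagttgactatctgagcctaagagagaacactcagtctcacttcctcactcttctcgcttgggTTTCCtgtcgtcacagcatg
Cd151, the downstream of its start sites, chr7:141468539-141468838, plus strand: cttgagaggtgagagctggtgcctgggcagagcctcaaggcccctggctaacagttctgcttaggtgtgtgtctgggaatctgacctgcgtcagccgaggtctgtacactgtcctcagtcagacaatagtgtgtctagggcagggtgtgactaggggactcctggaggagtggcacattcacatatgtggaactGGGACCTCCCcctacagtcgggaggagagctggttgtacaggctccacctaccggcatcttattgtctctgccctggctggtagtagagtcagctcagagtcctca
Tspan32, chr7:143004796-143005095, plus strand: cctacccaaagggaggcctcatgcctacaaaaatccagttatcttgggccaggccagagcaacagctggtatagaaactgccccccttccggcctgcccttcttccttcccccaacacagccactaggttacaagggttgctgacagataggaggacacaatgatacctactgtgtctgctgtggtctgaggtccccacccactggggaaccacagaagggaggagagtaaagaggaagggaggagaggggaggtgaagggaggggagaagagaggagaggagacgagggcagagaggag

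The NFAT core occurred in the promoters of Cd63, Cd9, Cd53 and Cd37, the last not called with antigen, at 2 of 4 start sites of Cd82 and at 1 of 2 of Tspan14. It was absent from both start sites of Cd151, which rose, and from the promoters of Cd81, Tspan3 and Tspan32. In all, 7 of the 15 tetraspanin promoters held it, against 61.3% of 32851 RefSeq promoters of the same length. The NF-kB consensus occurred in 1 of the 15, the Cd151 promoter shown, against 5.80% of all promoters. Neither AP-1 nor the cyclic AMP response element TGACGTCA occurred in any of the 15, against 7.81% and 1.79% of all promoters. The GATA motif AGATAA, bound by factors of the mast cell lineage, occurred in 1 promoter, that of Tspan32, against 11.2%. The E-box CANNTG occurred in 12, against 72.3%, and the EGR motif GCGNGGGCG in 1, that of Tspan14, against 5.55%. A match is a description of the letters and not a binding site.

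Antigen raised most of these tetraspanins and lowered Tspan32. Against IgE, 7 of the 10 rose, 2 fell and 1 was not called, where 36.2% of all tested genes were called higher and 34.9% lower, 71.1% in all. For these 9 the antigen and IgE libraries did not overlap, which held upwards for 37.1% and downwards for 37.0% of all tested genes. Cd53, Cd82 and Cd9 rose by more than 1 on the log2 scale, as did 7.34% of all tested genes. The lowest value over the alternative runs was 0.79 for Cd9, 1.10 for Cd53 and 1.18 for Cd82. The median log2 fold change of the 10 was 0.39, and that of all tested genes was -0.01. IgE alone changed fewer of them: Cd63 rose and Cd81, Cd82 and Tspan32 fell, 1 higher and 3 lower where 14.5% of all tested genes were called higher and 13.1% lower, 27.5% in all. From untreated to antigen 6 rose, 1 fell and 3 were not called, where 37.2% were called higher and 34.4% lower, 71.7% in all. Between these groups 6 genes were apart upwards and 2 downwards, against 40.2% and 38.0% of all tested genes. The 3 comparisons share their libraries, so their values are given side by side and not as separate evidence. The 10 were chosen with earlier results of these data known, so their contrast with all tested genes is not independent of the data. For antigen against IgE, 1 of the 8 other tested tetraspanins rose and 4 fell, with a median log2 fold change of -0.16.

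**Figure D1:**
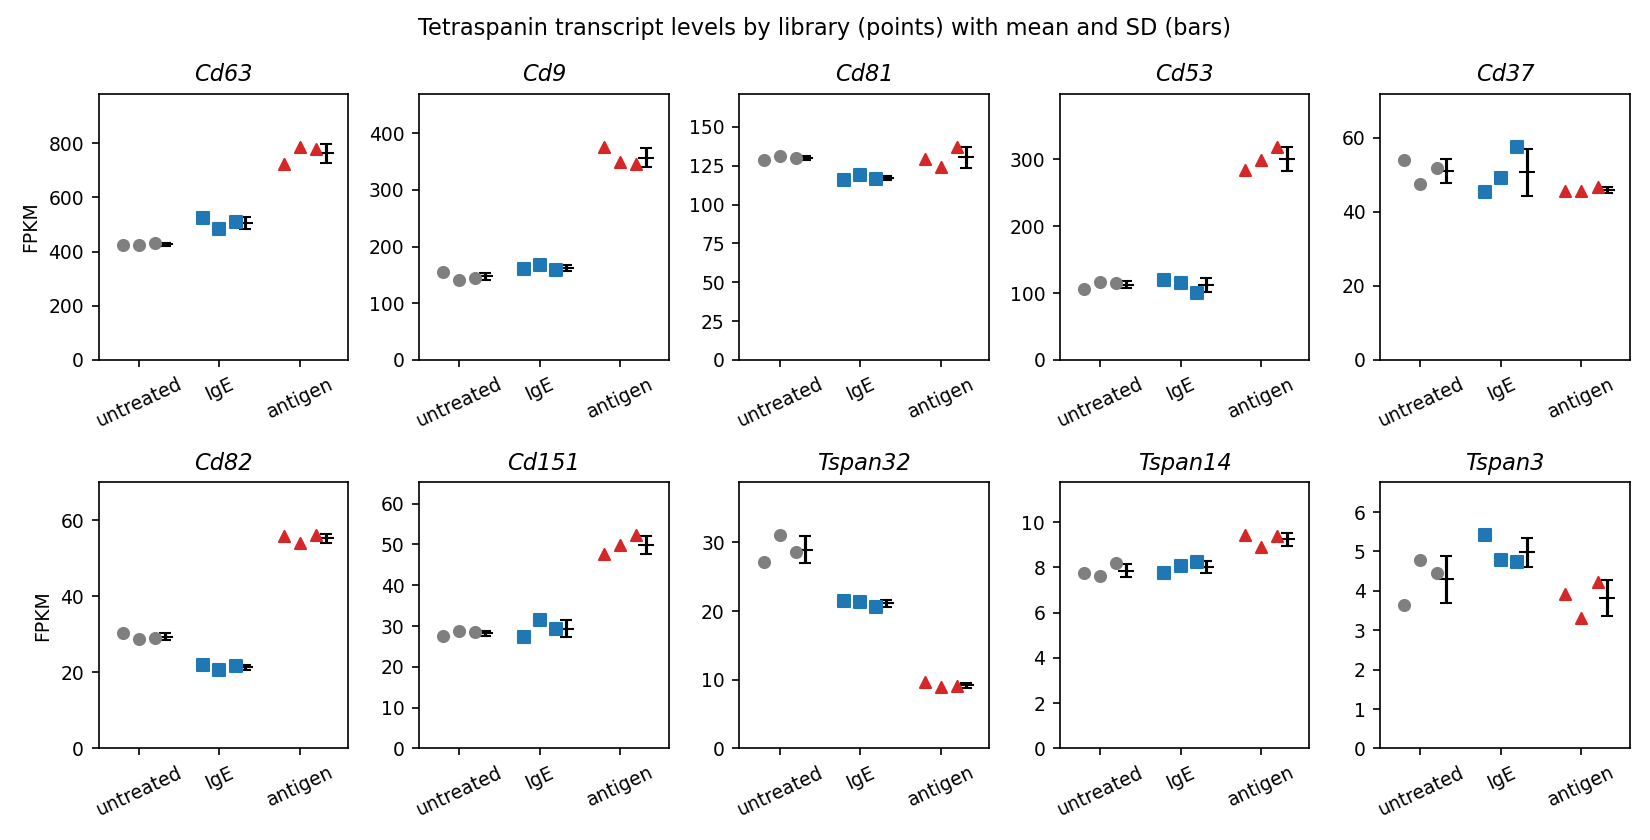
FPKM of the 10 tetraspanins in each library (points) with the group mean and SD (bars), n = 3 per group. The antigen libraries of Cd63, Cd9, Cd53, Cd82 and Cd151 lie above all other libraries, those of Tspan32 lie below all others, and those of Cd81 lie within or near the untreated range.

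The tetraspanins of granules and exosomes come first. Cd63 had the highest level of the 10 in every library. It stood at 425, 423 and 432 FPKM in untreated, at 525, 482 and 509 FPKM in IgE and at 724, 787 and 779 FPKM in antigen libraries. The groups did not overlap, and each step brought a rise. Antigen raised Cd63 from 505 ± 22.0 to 763 ± 34.6 FPKM, 1.51-fold, with a log2 fold change of 0.59 (SE 0.0474, limma adjusted p = 7.33e-06). Under quantile normalization, which forces 1 distribution on all libraries, that rise was 0.35 and was still called. IgE had raised it 1.18-fold from 427 ± 4.48 FPKM, a log2 fold change of 0.24 (limma adjusted p = 0.00764). This smaller rise was not called under quantile normalization, at 0.18 (limma adjusted p = 0.0772). Over both steps the level rose 1.79-fold, by 0.84 on the log2 scale, or by 0.53 under quantile normalization.

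Cd9, a cell-surface tetraspanin needed for the fusion of egg and sperm in mice and common on exosomes, stood at 155, 142 and 145 FPKM in untreated and at 160.2, 168 and 158 FPKM in IgE libraries. In antigen libraries it reached 376, 349 and 346 FPKM. All antigen libraries lay far above the other 6, which fell close together. Antigen raised Cd9 2.20-fold over IgE, with a log2 fold change of 1.13 (SE 0.0478, limma adjusted p = 1.56e-07). The IgE libraries also lay above the untreated ones without overlap, but by 0.14 on the log2 scale (95% interval 0.03 to 0.25), which was not called (limma adjusted p = 0.0645). Groups were apart upwards in this comparison for 21.3% and downwards for 21.8% of all tested genes. Without IgE replicate 3 and antigen replicate 3 the Cd9 difference was 0.15 and was called (limma adjusted p = 0.0440).

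Cd81, a widely expressed cell-surface tetraspanin, behaved differently from Cd63 and Cd9 and changed little in FPKM as deposited. It stood at 129, 131 and 130.1 FPKM in untreated, at 116, 119 and 117 FPKM in IgE and at 129.5, 124 and 137 FPKM in antigen libraries. The IgE libraries were the lowest, and the untreated and antigen libraries overlapped. IgE lowered it by 0.15 on the log2 scale (log2 fold change -0.15, limma adjusted p = 0.0211). That call was lost under median centring (limma adjusted p = 0.0573) and when any of 4 single libraries was left out. Antigen against IgE gave 0.15 (SE 0.0381, limma adjusted p = 0.00675), but -0.16 under quantile normalization (limma adjusted p = 0.0183), so the direction of this step depends on the scaling. For antigen against untreated cells the difference was 0.00 (95% interval -0.09 to 0.09, limma adjusted p = 0.983). Under quantile normalization it was -0.37 and called lower (limma adjusted p = 0.000164).

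A ratio of 2 transcripts within a library does not change when the whole library is scaled by a factor, and the ratios set Cd63 and Cd9 apart from Cd81. Cd63 over Cd81 was 3.28 ± 0.0522 in untreated, 4.32 ± 0.239 in IgE and 5.87 ± 0.407 in antigen libraries, with no overlap between groups. Cd9 over Cd81 went from 1.13 ± 0.0616 through 1.38 ± 0.0270 to 2.75 ± 0.198, also with no overlap. Cd63 over Cd9, 2.90 ± 0.132 in untreated and 3.12 ± 0.218 in IgE libraries with overlapping ranges, was lower in all antigen libraries, at 2.14 ± 0.190. The 3 exosome tetraspanins therefore did not keep their proportions.

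**Figure D2:**
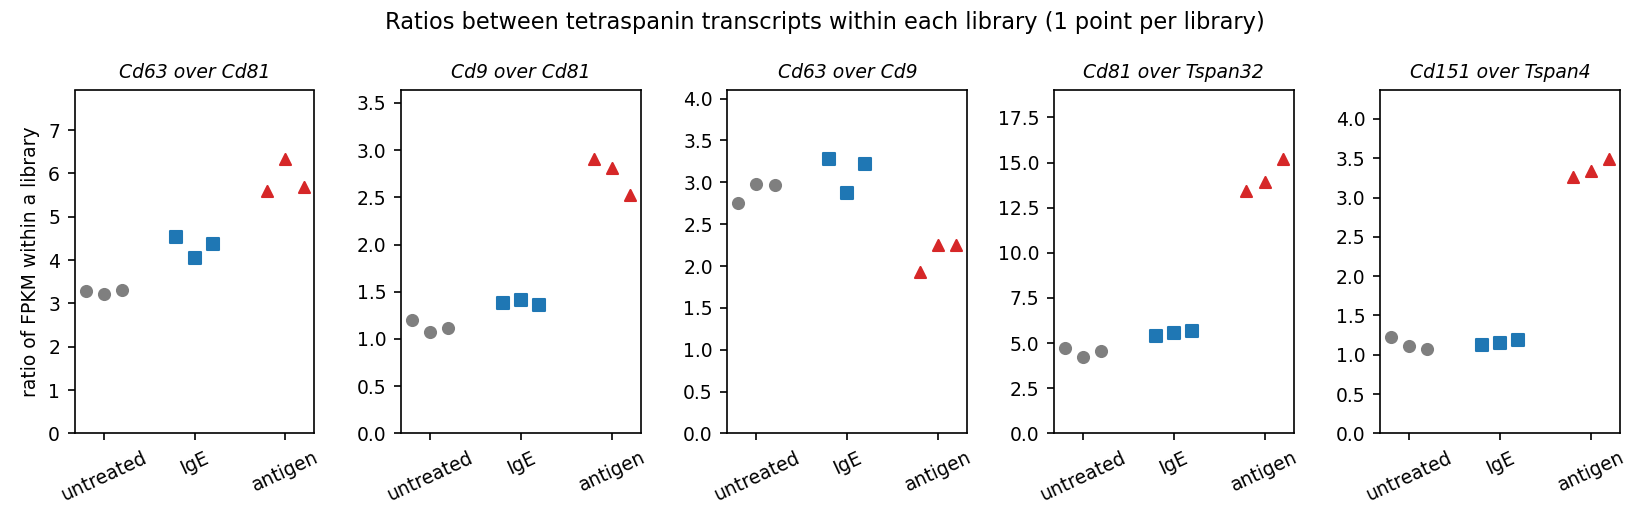
Ratios of FPKM between pairs of tetraspanins within each library, 1 point per library, 3 libraries per group, linear axes from 0. In all 5 panels the antigen libraries lie apart from the other 6, with Cd63 over Cd9 lower and the other 4 ratios higher.

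Next come the tetraspanins found mainly on blood cells. Cd53, a pan-leukocyte tetraspanin, stood at 107, 116 and 115 FPKM in untreated and at 120.2, 116 and 99.5 FPKM in IgE libraries. In antigen libraries it was at 283, 298 and 319 FPKM. The untreated and IgE groups overlapped, and every antigen library lay above all of them. Antigen raised Cd53 2.69-fold over IgE, a log2 fold change of 1.42 (SE 0.0763, limma adjusted p = 6.49e-07). For IgE against untreated the log2 fold change was -0.02 (95% interval -0.19 to 0.16, limma adjusted p = 0.914). IgE replicate 3 held the lowest of the 9 values, and without it that difference was 0.07 (limma adjusted p = 0.420).

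Cd37, a leukocyte tetraspanin best known from B cells, stood at 54.0, 47.5 and 51.8 FPKM in untreated, at 45.3, 49.2 and 57.6 FPKM in IgE and at 45.5, 45.5 and 46.8 FPKM in antigen libraries. The untreated and IgE groups overlapped, the antigen group lay below the untreated group and within the range of the IgE group, and IgE replicate 3 was the highest of the 9 libraries. No comparison was called: antigen against IgE gave -0.13 (95% interval -0.32 to 0.06, limma adjusted p = 0.185). Under quantile normalization it was called lower at -0.30 (limma adjusted p = 0.0243), and without IgE replicate 1 at -0.21 (limma adjusted p = 0.0424). Against untreated cells the antigen group gave -0.15 (limma adjusted p = 0.142). That difference was called lower under quantile normalization (-0.35, limma adjusted p = 0.0115), in a fit of these 2 groups alone (limma adjusted p = 0.0336), without IgE replicate 3 (limma adjusted p = 0.0347) and without IgE replicate 3 and antigen replicate 3 (-0.16, limma adjusted p = 0.0313). Cd53 over Cd37 was 2.22 ± 0.233, 2.24 ± 0.472 and 6.53 ± 0.291 in untreated, IgE and antigen libraries.

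Tspan32, also called Tssc6 or Phemx, is a tetraspanin of blood cells that takes part in platelet integrin signalling in mice. It stood at 27.1, 31.0 and 28.7 FPKM in untreated, at 21.4, 21.3 and 20.5 FPKM in IgE and at 9.65, 8.91 and 9.03 FPKM in antigen libraries. The 3 groups did not overlap, and the level stepped down each time. IgE lowered it by 27.1% (log2 fold change -0.44, limma adjusted p = 0.00100), from 28.9 ± 1.97 to 21.1 ± 0.484 FPKM. Antigen lowered it by a further 56.4%, to 9.20 ± 0.394 FPKM (log2 fold change -1.12, SE 0.0526, limma adjusted p = 2.95e-07). Over both steps the level fell by 68.2%. Each of these calls was kept under every alternative run.

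Cd151 and Cd82 act mainly in adhesion and migration. Cd151, the partner of the laminin-binding integrins, stood at 27.5, 28.7 and 28.5 FPKM in untreated, at 27.2, 31.4 and 29.3 FPKM in IgE and at 47.8, 49.8 and 52.2 FPKM in antigen libraries. Untreated and IgE libraries overlapped, and all antigen libraries were higher. The rise over IgE was 1.70-fold, 0.75 on the log2 scale (SE 0.0548, limma adjusted p = 4.30e-06). For IgE against untreated the log2 fold change was 0.05 (95% interval -0.08 to 0.18, limma adjusted p = 0.541).

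Cd82, known as the metastasis suppressor KAI1, moved in opposite directions in the 2 steps. It stood at 30.4, 28.8 and 29.0 FPKM in untreated, at 21.8, 20.7 and 21.7 FPKM in IgE and at 55.9, 54.0 and 56.1 FPKM in antigen libraries. The IgE libraries were the lowest, the antigen libraries the highest, and no groups overlapped. IgE lowered Cd82 by 27.2% (log2 fold change -0.44, limma adjusted p = 0.000259), and antigen raised it 2.59-fold from there (log2 fold change 1.33, SE 0.0355, limma adjusted p = 1.19e-08). It ended 1.88-fold above untreated cells. Cd82 over Cd37 was 0.577 ± 0.0257 in untreated, 0.426 ± 0.0532 in IgE and 1.20 ± 0.0213 in antigen libraries.

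Tspan14 and Tspan3 had the lowest levels in untreated and IgE libraries, and Tspan32 joined Tspan14 in antigen libraries. Tspan14, one of the TspanC8 tetraspanins that escort the protease ADAM10 to the cell surface, stood at 7.74, 7.64 and 8.18 FPKM in untreated, at 7.73, 8.06 and 8.24 FPKM in IgE and at 9.42, 8.90 and 9.40 FPKM in antigen libraries. Untreated and IgE libraries overlapped, and the antigen libraries lay slightly above both. Antigen raised it 1.15-fold over IgE, 0.18 on the log2 scale (SE 0.0423, limma adjusted p = 0.00432). Tspan3, studied mostly in leukaemia stem cells of mice, stood at 3.64, 4.79 and 4.44 FPKM in untreated, at 5.41, 4.77 and 4.74 FPKM in IgE and at 3.92, 3.31 and 4.22 FPKM in antigen libraries. The antigen libraries lay below the IgE libraries but within or near the untreated ones. Antigen lowered it relative to IgE by 0.31 on the log2 scale (log2 fold change -0.31, limma adjusted p = 0.0216). At this level counting noise alone gives a coefficient of variation of about 7.80% for a 2 kb transcript. The call was lost under quantile normalization (-0.22, limma adjusted p = 0.130), without IgE replicate 1 (limma adjusted p = 0.0742) and without antigen replicate 2 (limma adjusted p = 0.0738).

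**Figure D3:**
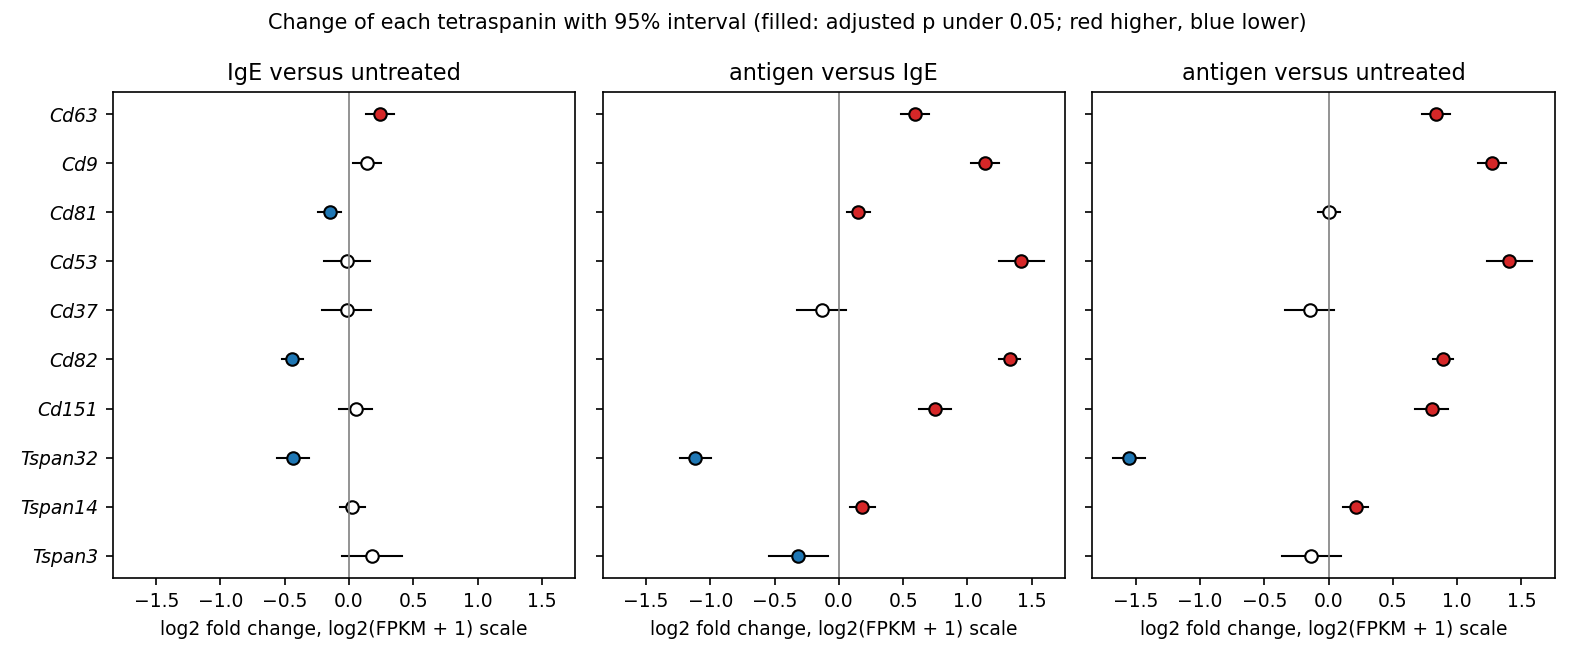
Log2 fold changes of the 10 tetraspanins on the log2(FPKM + 1) scale in each comparison, with 95% intervals from the limma fit (filled points: adjusted p under 0.05). Cd63 is above 0 in all 3 comparisons, Tspan32 is below 0 in all 3, and Cd82 is below 0 with IgE and above 0 with antigen. Cd81 with antigen against IgE turns from 0.15 to -0.16 under quantile normalization, and Cd63 with IgE loses its call there.

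Summed over the 10 genes alone, the level stood at 961 to 973 FPKM in untreated, 1019 to 1051 FPKM in IgE and 1685 to 1759 FPKM in antigen libraries. This sum leaves out the other tetraspanins, among them Tspan13 at 295, 316 and 299 FPKM in untreated libraries. Cd63 made up 44.1% ± 0.202 of this sum in untreated, 49.0% ± 1.49 in IgE and 44.2% ± 1.28 in antigen libraries. Cd53 went from 10.8% ± 0.978 in IgE to 17.4% ± 0.659 in antigen libraries and Cd9 from 15.7% ± 0.647 to 20.7% ± 1.40, while Cd81 went from 11.4% ± 0.302 to 7.56% ± 0.327. These shares add up to a whole, so that a larger share of one gene lowers those of the others.

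The order of the levels changed with antigen. In untreated libraries it ran Cd63, Cd9, Cd81, Cd53, Cd37, Cd82, Tspan32, Cd151, Tspan14, Tspan3, and the ranges of Cd82 and Tspan32 and of Tspan32 and Cd151 overlapped. In IgE libraries Cd151 came before Cd82 and Tspan32, and the overlapping neighbours were Cd81 with Cd53 and Cd82 with Tspan32. In antigen libraries it ran Cd63, Cd9, Cd53, Cd81, Cd82, Cd151, Cd37, Tspan14, Tspan32, Tspan3, with overlap only between Tspan14 and Tspan32. Cd53 had thus passed Cd81, Cd82 and Cd151 had passed Cd37, and Tspan32 had dropped to the level of Tspan14.

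The genes whose centred log2 profile over the 9 libraries lay closest to that of Cd63 were Kpna3, Akap2, Mfsd7b, Ackr1 and Pgam1. Their root mean square differences from Cd63 were 0.0469, 0.0537, 0.0606, 0.0622 and 0.0650, against a median of 0.393 over the other 10889 tested genes. Kpna3, an importin, stood at 17.8 ± 0.320, 20.7 ± 0.283 and 30.7 ± 1.38 FPKM, and Pgam1, a glycolytic enzyme, at 77.8 ± 4.29, 93.4 ± 1.19 and 148 ± 2.70 FPKM in untreated, IgE and antigen libraries. Among the tetraspanins described here Cd151 was nearest, at 0.116 and rank 205, and Tspan32 farthest, at 1.01 and rank 10433.

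Members of the family on the same stretch of chromosome 7 did not move together. Tspan32 and Cd81 have only R74862 annotated between them, yet Cd81 over Tspan32 went from 4.51 ± 0.260 in untreated through 5.55 ± 0.128 in IgE to 14.2 ± 0.907 in antigen libraries. R74862, which overlaps the annotated Cd81, was at 0.745 ± 0.0652 FPKM in antigen libraries and too low to be tested. Tssc4, on the other side of Cd81, rose with IgE from 14.2 ± 0.341 to 17.0 ± 1.41 FPKM (limma adjusted p = 0.0160, but 0.0573 and 0.0542 without untreated replicate 1 and 3) and fell to 14.3 ± 0.429 FPKM with antigen (limma adjusted p = 0.00616). Cd151 lies near another tetraspanin gene, Tspan4, with Polr2l, an RNA polymerase subunit gene, between them, a pair chosen after its values were seen. Cd151 over Tspan4 was 1.14 ± 0.0795 in untreated, 1.15 ± 0.0313 in IgE and 3.37 ± 0.114 in antigen libraries. Whether the counting used strand is not given, so reads of genes that overlap cannot be told apart.

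Of 22 other tetraspanin genes listed, 21 were in the table and 8 passed the filter on low values. With antigen against IgE 1 of these rose, 4 fell and 3 were not called, where 36.2% of all tested genes were called higher and 34.9% lower, and their median log2 fold change was -0.16. Against untreated cells 1 rose and 7 fell, with a median of -0.34, where 37.2% and 34.4% of all tested genes were called. Under quantile normalization 5 of those 7 falls were called. Tspan5, another TspanC8 tetraspanin, stood at 3.24, 3.03 and 2.93 FPKM in untreated, at 3.29, 2.85 and 3.35 FPKM in IgE and at 13.7, 13.4 and 14.5 FPKM in antigen libraries. The antigen libraries lay far above the other 6, which overlapped. Its rise over IgE was 4.38-fold, 1.84 on the log2 scale (SE 0.0594, limma adjusted p = 3.60e-08), larger than that of any of the 10. Tspan4 stood at 22.5, 25.6 and 26.7 FPKM in untreated, at 24.2, 27.3 and 24.7 FPKM in IgE and at 14.6, 14.9 and 14.97 FPKM in antigen libraries. It fell with antigen without overlap (log2 fold change -0.74, limma adjusted p = 1.72e-05).

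Smaller falls with antigen were those of Tspan2, from 5.88 ± 0.247 to 4.47 ± 0.509 FPKM (log2 fold change -0.33), of Tspan9 from 0.958 ± 0.127 FPKM (-0.36) and of Tspan31 from 63.1 ± 1.70 to 58.6 ± 0.654 FPKM (-0.10). The call of Tspan9 was lost under quantile normalization and that of Tspan31 without antigen replicate 3 (limma adjusted p = 0.0576). Tspan13, the most abundant tetraspanin after Cd63 in untreated cells, was the only one of the 8 called with IgE, falling from 304 ± 11.3 to 259 ± 3.69 FPKM (log2 fold change -0.23, limma adjusted p = 0.00269). Its level with antigen was 252 ± 3.04 FPKM, not called against IgE (-0.04) except under quantile normalization (-0.32). Tspan8 was at 13.8 ± 0.871 FPKM with antigen against 16.3 ± 2.42 FPKM with IgE, which was called only when IgE replicate 3 was left out (-0.34, limma adjusted p = 0.00481). Rom1, a photoreceptor tetraspanin, was at 3.44 ± 0.342 and 3.67 ± 0.568 FPKM in the same groups.

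Of the 6 TspanC8 genes only Tspan5 and Tspan14 passed the filter, and both rose with antigen against IgE. Of all tested genes 36.2% were called higher and 34.9% lower, and 2 genes are too few to set against these shares. With no filter on low values, 2 of the 6 were called higher, 1 lower and 3 were not called. The shares over all genes in that run are not reported here. Tspan17 was at 0.781, 0.532 and 0.696 FPKM in IgE and lower, at 0.453, 0.381 and 0.418 FPKM, in antigen libraries. Tspan33 was at 0.133, 0.155 and 0.239 FPKM in IgE and lower, at 0.124, 0.0247 and 0.0723 FPKM, in antigen libraries. Adam10, the protease that TspanC8 tetraspanins bind, rose with antigen from 56.7 ± 1.75 to 95.7 ± 4.71 FPKM (1.69-fold, log2 fold change 0.75, limma adjusted p = 8.09e-07). Adam17, a related protease that does not belong to the TspanC8 complexes, fell from 33.3 ± 1.51 to 28.4 ± 0.401 FPKM (log2 fold change -0.22, limma adjusted p = 0.000670). Before antigen, IgE left all of Tspan5, Tspan14, Adam10 and Adam17 uncalled, with log2 fold changes between -0.03 and 0.03.

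Among 22 listed partner proteins of tetraspanins 11 passed the filter, of which 5 rose, 4 fell and 2 were not called with antigen against IgE, shares near the 36.2% and 34.9% of all tested genes. Their median log2 fold change was 0.10, and -0.043 under quantile normalization, where 4 were called higher and 4 lower. Cd44, the hyaluronan receptor, stood at 6.65, 5.94 and 6.51 FPKM in untreated, at 6.47, 6.25 and 6.89 FPKM in IgE and at 30.7, 31.2 and 31.1 FPKM in antigen libraries. The antigen group lay far above the others, and the rise was 4.74-fold (log2 fold change 2.09, SE 0.0484, limma adjusted p = 5.65e-09). Icam1, an integrin ligand, fell with IgE from 9.17 ± 0.0478 to 8.06 ± 0.302 FPKM (log2 fold change -0.17, limma adjusted p = 0.0128) and rose 2.36-fold with antigen to 19.0 ± 0.509 FPKM. Hbegf, a growth factor precursor that binds CD9, rose from 1.69 ± 0.207 to 3.002 ± 0.120 FPKM (log2 fold change 0.58).

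Integrin genes went the other way or kept their call only under some scalings. Itga6, a laminin receptor subunit and partner of CD151, rose with IgE from 12.2 ± 0.120 to 14.4 ± 0.146 FPKM (log2 fold change 0.22, limma adjusted p = 0.00246) and fell to 11.5 ± 0.382 FPKM with antigen (-0.30, limma adjusted p = 5.90e-05). Itga4, a partner of CD81 and CD37, fell with antigen from 4.17 ± 0.00981 to 2.99 ± 0.107 FPKM (-0.37, limma adjusted p = 4.90e-05). Itgb1, their shared beta chain, went from 63.9 ± 2.32 to 72.1 ± 1.77 FPKM, called higher at 0.17 (limma adjusted p = 0.00351) but -0.04 under quantile normalization. Igsf8, the immunoglobulin-like partner of CD9 and CD81, fell from 11.6 ± 0.444 to 8.25 ± 1.05 FPKM (-0.45, limma adjusted p = 0.000824). The 2 partners not called were Kit, the stem cell factor receptor, and Zdhhc2, an enzyme that palmitoylates CD9 and CD151, the latter having risen with IgE from 2.13 ± 0.216 to 3.40 ± 0.401 FPKM (log2 fold change 0.49, limma adjusted p = 0.00344). Without IgE replicate 3, Kit was called higher with antigen at 0.19 (limma adjusted p = 0.0173).

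**Figure D4:**
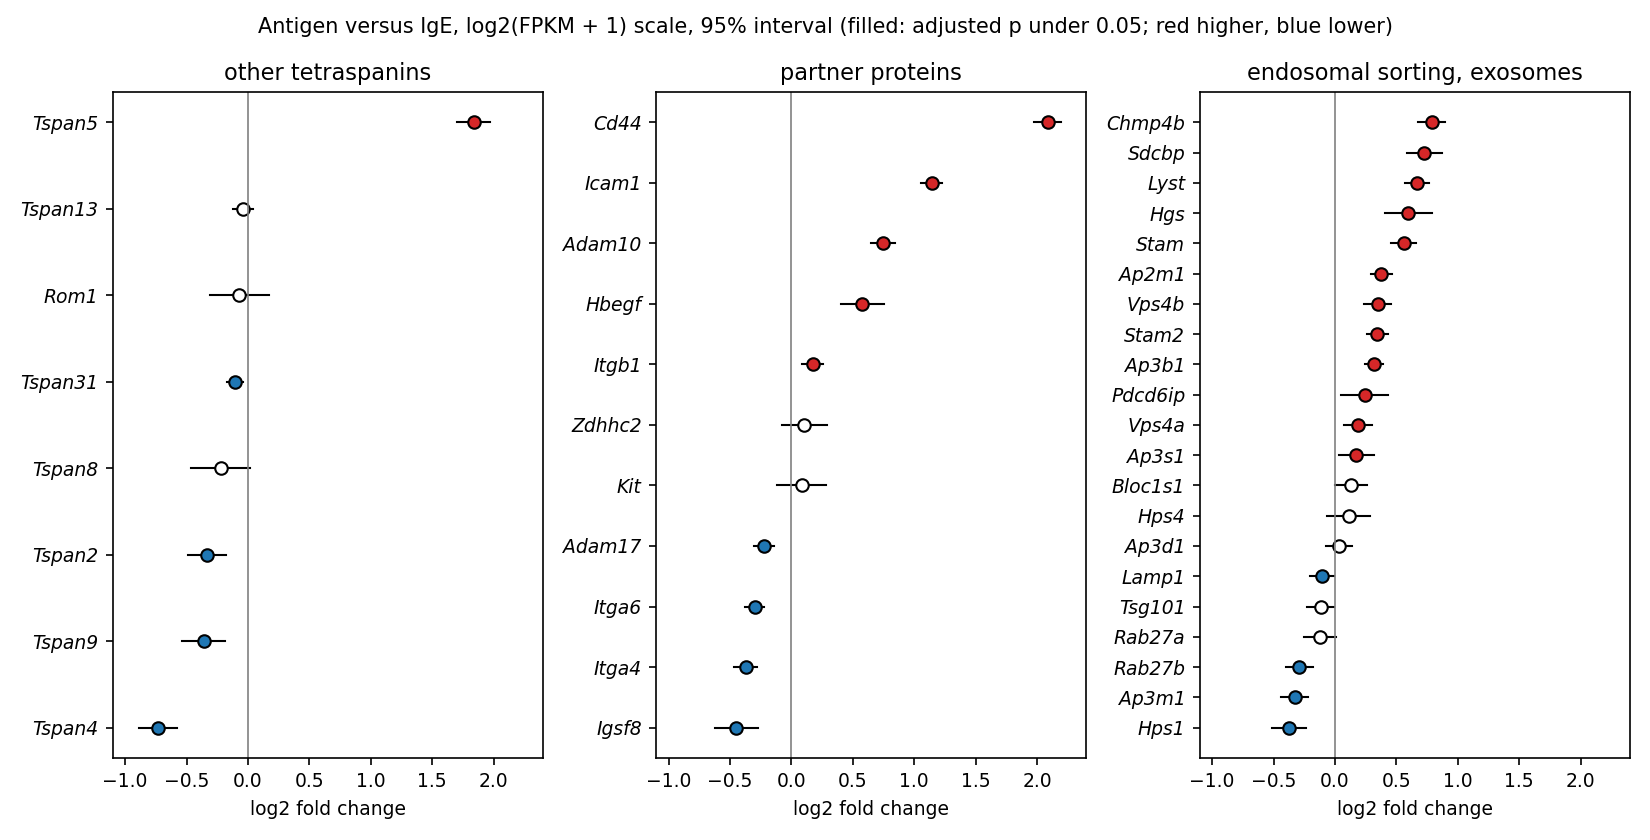
Log2 fold changes of antigen against IgE on the log2(FPKM + 1) scale for tested genes of the 3 lists, with 95% intervals from the limma fit; filled points passed the adjusted p threshold, red higher and blue lower, and X-linked Lamp2 is left out. Tspan5 and Cd44 lie near 2, and 12 of the sorting genes lie above 0 with filled points; under quantile normalization Ap2m1, Ap3s1, Pdcd6ip and Vps4a lose their calls, Tspan9 too, Tspan13, Rab27a and Tsg101 are called lower, and Itgb1 turns to -0.04.

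Last come the genes that sort CD63 into granules and form exosomes. Of 23 listed 22 passed the filter, and with antigen against IgE 12 rose, 4 fell and 6 were not called, where 36.2% of all tested genes were called higher and 34.9% lower. The median log2 fold change was 0.18. Under quantile normalization 8 rose and 6 fell, with a median of 0.058: Ap2m1, Ap3s1, Pdcd6ip and Vps4a lost their calls, and Rab27a and Tsg101 were called lower. Ap3s1 also lost its call without IgE replicate 1, 2 or 3 and without antigen replicate 1 or 2 (limma adjusted p = 0.0597 to 0.111). Pdcd6ip also lost its call in a fit of the 2 groups and without IgE replicate 1, IgE replicate 2 or antigen replicate 2. Without IgE replicate 2 or without antigen replicate 2, 10 of the sorting genes were called higher. Sdcbp (syntenin), which links CD63 to the exosome machinery, stood at 105, 109 and 114 FPKM in untreated, at 124, 119 and 105 FPKM in IgE and at 189, 191 and 196 FPKM in antigen libraries. The antigen libraries lay above all others, and the rise was 1.66-fold (log2 fold change 0.73, SE 0.0619, limma adjusted p = 1.10e-05). Chmp4b, an ESCRT-III subunit that buds vesicles into endosomes, rose 1.73-fold from 146 ± 8.69 to 253 ± 5.24 FPKM (log2 fold change 0.79, limma adjusted p = 1.46e-06). Stam, an ESCRT-0 subunit, rose from 13.7 ± 0.290 to 20.8 ± 1.03 FPKM (0.56, limma adjusted p = 7.10e-06).

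Lyst, a regulator of lysosome and granule size, fell with IgE from 14.9 ± 0.347 to 11.5 ± 0.366 FPKM (log2 fold change -0.35, limma adjusted p = 0.00105) and rose with antigen to 18.9 ± 0.869 FPKM (0.67, limma adjusted p = 1.83e-06). Subunits of AP-3, an adaptor that reads the sorting signal in the CD63 tail, did not move together. Ap3b1, the beta subunit of AP-3, rose from 46.6 ± 0.862 to 58.3 ± 1.48 FPKM (0.32, limma adjusted p = 2.38e-05). Ap3m1, its cargo-reading mu subunit, fell from 25.4 ± 0.644 to 20.1 ± 1.30 FPKM (-0.33, limma adjusted p = 0.000309), and Ap3d1, its delta subunit, was not called (0.031). Ap2m1, the cargo-binding subunit of AP-2, an adaptor that reads the same signal, went from 139 ± 3.59 to 180.4 ± 7.41 FPKM (0.38, limma adjusted p = 3.14e-05), but its difference was 0.04 and not called under quantile normalization. The 4 that fell were Rab27b, which docks secretory granules and exosome-bearing endosomes, Ap3m1, Hps1, which acts in the formation of lysosome-related organelles, and Lamp1, a lysosomal membrane protein. Lamp1, at -0.11, sat at the threshold (limma adjusted p = 0.0479) and lost its call when IgE replicate 1 was left out (limma adjusted p = 0.101) and in other settings. Lamp2 is X-linked and listed at 0 in antigen replicate 3. With that 0 treated as missing it rose by 0.40 (limma adjusted p = 0.000354), making 13 higher.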

How the data were processed

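RNA-seq values of 9 libraries, 3 per group, were read from 1 table of 23951 gene symbols. The values are FPKM as deposited by the authors. Per the submitters' processing notes, the aligners were TopHat2 (2.0.12) and, from the same notes, Bowtie (0.12.7), and the genome build was mm9. Which program gave the FPKM values, on which annotation and with which strand setting, is not given in the sources used here. Libraries were put into groups by their treatment labels.

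Genes at 1 FPKM or more in at least 3 libraries, 10890 in all, were transformed to log2(FPKM + 1). The limma fit (version 3.58.1, R 4.3.3) had a term for each group, no covariate, an intensity trend and 1 spread estimate over the 9 libraries. All 10 tetraspanins passed this filter. Tests were two-sided, with Benjamini-Hochberg adjustment within each comparison. The fit was tested on simulated data. No label says that replicates came from separate cultures, so p-values measure only how these samples differ among themselves, a spread that may be technical.

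The files give no read totals. Depth was estimated from the steps that 1 read makes in low FPKM values of 2966 genes with a single transcript over 1000 bases. At the lowest depth, counting noise alone gives a coefficient of variation of 15.6% at 1 FPKM, 4.93% at 10 FPKM and 1.56% at 100 FPKM for a 2 kb transcript. Replicate pairs differed by 1.17 to 2.77 times that noise, so no library was counted as a copy of another.

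The members, the lists (other tetraspanins, TspanC8, partner proteins, sorting and exosomes) and the marker lists were chosen with earlier results of these data known. Named genes were the members, other tetraspanins at 1 FPKM or more in a group, up to 6 called genes per further list by adjusted p for antigen against IgE, the 5 profiles nearest Cd63 and the neighbours of adjoining members. Igsf8, Itgb1, Adam17, Kit, Zdhhc2, Rab27b, Ap3m1, Hps1, Ap3d1, Ap3s1, Pdcd6ip, Vps4a, Rab27a, Tsg101, Lamp1, Lamp2 and macrophage markers were added after their values were seen. Marker lists of neutrophils, T cells, dendritic cells and fibroblasts had at most 1 tested gene, with no call. Of megakaryocyte markers 1 rose and 1 fell with antigen against IgE. The B cell list had 1 tested gene, which fell, and the erythroid list 1, which rose.

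Alternatives were pseudocounts of 0.1 and 0.5, no filter or 5 FPKM, median centring, quantile normalization, no trend, a fit of 2 groups, a replicate block and each library left out. Treating X and Y zeros of antigen replicate 3 as missing, and leaving out IgE replicate 3 with antigen replicate 3, were added after seeing the data. Promoters and gene order come from RefSeq on GRCm38.p6, whose coordinates were not mixed with mm9.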

Additional observations from a re-analysis of the deposited data

How the results depend on the processing

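Of 597 alternative values of the members' log2 fold changes, 568 kept direction and call and 13 turned sign. Of those that kept their sign, 9 lost and 7 gained a call (limma). Cd81 with antigen against untreated both turned sign and gained a call under quantile normalization (limma adjusted p = 0.000164). Quantile normalization turned Cd81 to -0.16 for antigen against IgE and -0.37 against untreated, which median centring gave as -0.023. Without IgE replicate 3 and antigen replicate 3 together, Cd81 against untreated was -0.036, Cd53 with IgE was 0.065, and 4216 genes were called for IgE against untreated in place of 2999. Leaving out 1 library at a time gave 1914 to 3887 genes there, the lowest without untreated replicate 1, log2 fold changes with IgE of -0.11 to 0.060 for Cd37 and -0.070 to 0.065 for Cd53, and -0.036 to 0.034 for Cd81 with antigen against untreated. The members called were 8 to 9, 3 to 4 and 7 to 8 for antigen against IgE, IgE against untreated and antigen against untreated. The cause of these changes was not tested.

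After the mean of each group was taken off, libraries with the same number correlated between -0.15 and 0.35. Those with different numbers correlated between -0.35 and 0.24. The ranges overlap and each group has 3 libraries, so these values cannot decide whether the numbers pair the libraries. With the replicate block 7553, 2500 and 7620 genes were called for antigen against IgE, IgE against untreated and antigen against untreated, in place of 7739, 2999 and 7805, and the members called stayed at 9, 4 and 7. Tspan3 could not be tested with the 5 FPKM filter. At the lowest depth, counting noise at 1 FPKM gives a coefficient of variation of 15.6%, which limits genes of that level such as Tspan9 and Hbegf.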
